A study of Mus musculus with 12 samples.

Results

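The G1 cyclins and CDK inhibitors are the genes that set whether a cell passes from G1 into S phase. The set described here holds 10 genes, the D cyclins Ccnd1, Ccnd2 and Ccnd3, the E cyclins Ccne1 and Ccne2, and the inhibitors Cdkn1a, Cdkn1b, Cdkn2a, Cdkn2b and Cdkn2c. They were taken by symbol from the 18193 genes with a probe set on the array, and together they had 23 probe sets. Where a gene had several probe sets, the one that was brightest on average across all 12 arrays was used. All 10 were among the 15781 genes tested, which reached a floor of 5 (log2) on 2 or more arrays. Of the 10, Ccne2 passed that floor on 5 arrays, the 4 basal arrays and 1 at day 5, and the other genes passed it on all 12.

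The cells were 2 bipotential mouse embryonic liver (BMEL) lines, 9A1 and 14B3, each isolated on its own from day 14 liver of CBA/J x C57Bl/6J cross embryos. BMEL lines are immortal epithelial progenitor lines that can be steered towards hepatocyte or bile duct fates in culture. Each line was kept in basal culture, on a dish where the cells divide, or as floating aggregates for 1 day (day 1) or 5 days (day 5). The 6 groups were basal 9A1, basal 14B3, day 1 9A1, day 1 14B3, day 5 9A1 and day 5 14B3, with 2 biological replicates each. The labels name no drug or genetic change between the groups. Each line is a single isolate, so the data say how these 2 lines behaved and not how liver progenitors vary.

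D cyclins are made in response to growth signals and activate the kinases Cdk4 and Cdk6, which phosphorylate the retinoblastoma (RB) proteins and so release E2F transcription factors. E2F drives the E cyclins, which activate Cdk2 and push the cell into S phase. Against them stand the CIP/KIP inhibitors (p21 from Cdkn1a and p27 from Cdkn1b), which bind many cyclin and CDK pairs, and the INK4 inhibitors (p16 from Cdkn2a, p15 from Cdkn2b and p18 from Cdkn2c), which bind Cdk4 and Cdk6. In liver, hepatocytes are mostly at rest, and cyclin D1 is known as the cyclin they induce when the organ regenerates.

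The values are log2 probe set levels made by the authors with RMA, so levels can be compared between arrays for 1 gene but not between genes. Array medians lay between 6.09 and 6.24. Keratins and liver factors were high on every array, and Krt8 lay between 14.01 and 14.23. Of the 9 measured progenitor epithelium markers, 6 were at or above 8 throughout. Epcam, Sox9 (6.30 to 9.24) and Dlk1 (5.55 to 7.08) were not. In basal culture Epcam was at 6.86 and 7.48 in 14B3, and at 12.63 and 6.86 in replicates 1 and 2 of 9A1. Epcam lay between 9.93 and 10.58 at day 1 and between 12.88 and 13.24 at day 5. Lists of 6 blood, 6 endothelial and 7 stellate cell and fibroblast markers had mean levels of 5.56 to 5.98, 4.90 to 5.38 and 5.65 to 6.09 over the 12 arrays, and none of these genes was at or above 8 on all arrays. Ptprc, Pecam1 and Lrat reached at most 4.72, 5.34 and 4.46, while Cd68 reached 8.13, Cd3e 8.48, Cdh5 7.65 (on basal 9A1 replicate 1), Kdr 6.97, Des 7.33 and Dcn 7.09. The part of such cells in the results was not tested. Basal 9A1 replicate 1 stood apart. Its correlation with its replicate over all probe sets was 0.952, and its mean over the 7 measured hepatocyte markers was 10.7, against 6.07 to 6.46 on the other basal arrays, 8.04 to 8.38 at day 1 and 10.7 to 12.2 at day 5. Its mean over 14 mitotic genes was 9.64, against 10.8 to 10.9 on the other basal arrays. The array closest to basal 9A1 replicate 1 was day 5 14B3 replicate 1 (correlation 0.976). By spread, day 1 9A1 replicate 2 also stood apart, with an SD of 2.13 against up to 2.33 elsewhere. For Ccnd1, Ccnd2, Cdkn2a and Cdkn2b, however, day 1 9A1 replicate 1 lay above the other day 1 arrays. Its Cdkn2b level was 9.14, against 5.46 to 6.10 on those. Results that turn on basal 9A1 replicate 1 or day 1 9A1 replicate 2 are given with and without it. Leaving out both keeps day 1 9A1 replicate 1.

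The start regions of 4 genes or transcripts are shown because the results turn on the INK4 locus and on an E cyclin that E2F is known to drive. Each line gives the 250 bases before an annotated RefSeq start (assembly GRCm38.p6), 5′ to 3′ on the strand of the gene. Capitals mark an E2F motif, searched on both strands as TTTCCCGC, TTTCGCGC, TTTGCCGC and TTTGGCGC.
Cdkn2a, upstream start, chr4:89294620-89294869, minus strand: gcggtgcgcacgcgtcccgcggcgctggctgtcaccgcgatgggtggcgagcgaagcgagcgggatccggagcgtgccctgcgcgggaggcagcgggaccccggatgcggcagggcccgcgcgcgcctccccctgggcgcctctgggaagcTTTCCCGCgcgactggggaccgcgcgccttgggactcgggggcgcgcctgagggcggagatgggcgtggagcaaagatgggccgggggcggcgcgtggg
Cdkn2a, downstream start, chr4:89282193-89282442, minus strand: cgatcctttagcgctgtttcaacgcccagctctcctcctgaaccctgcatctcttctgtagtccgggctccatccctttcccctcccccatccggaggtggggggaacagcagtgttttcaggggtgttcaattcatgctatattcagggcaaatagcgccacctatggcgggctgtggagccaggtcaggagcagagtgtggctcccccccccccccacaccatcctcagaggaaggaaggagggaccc
Cdkn2b, chr4:89311033-89311282, minus strand: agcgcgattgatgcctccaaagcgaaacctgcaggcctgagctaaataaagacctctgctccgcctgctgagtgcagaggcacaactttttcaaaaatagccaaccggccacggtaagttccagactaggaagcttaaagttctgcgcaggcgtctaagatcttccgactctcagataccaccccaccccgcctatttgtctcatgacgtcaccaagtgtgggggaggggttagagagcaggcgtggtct
Ccne1, chr7:38107491-38107740, minus strand: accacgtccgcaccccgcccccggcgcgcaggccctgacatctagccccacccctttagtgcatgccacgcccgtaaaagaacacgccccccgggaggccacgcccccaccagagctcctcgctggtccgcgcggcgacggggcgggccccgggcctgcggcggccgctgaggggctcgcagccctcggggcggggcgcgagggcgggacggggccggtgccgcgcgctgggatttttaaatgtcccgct
The motif stands 99 bases before the upstream start of Cdkn2a. These letters were not found in the other 3 sequences. Over windows of 250 bases before to 50 bases after the start, 2.26% of 32851 promoters held a match, and 3.41% of those of tested genes did. Among the promoters of the 19 tested E2F targets of S phase entry described further on, 8 of 18 held one. That list was chosen as known E2F targets, so its share does not bear on the motif. Cdkn1a, Cdkn1b, Cdkn2c and Ccnd3 were also searched and held none. A match describes letters and is not evidence of binding.

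Which of these genes moved when the cells left basal culture was tested with limma over all 15781 genes, with both lines averaged and p-values adjusted over all genes. At day 1, 4 of the 10 genes were called, at an adjusted p under 0.05, against 14.0% of all tested genes. Ccnd2, Ccne1 and Ccne2 were lower, as 8.80% of tested genes were, and Ccnd3 was higher, as 5.25% were. At day 5, 5 of the 10 were called against basal culture, where the share over all tested genes was 35.4%, with 16.9% higher and 18.5% lower. Ccnd1, Ccnd2, Ccne1, Ccne2 and Cdkn2c were lower and none was higher, with 0 genes higher at an unadjusted p under 0.05 as well. Between day 1 and day 5, 5 of the 10 were called against 21.7% of all tested genes, 11.7% higher and the others lower. Cdkn2a and Cdkn2b were higher at day 5 than at day 1, while Ccnd3, Cdkn1b and Cdkn2c were lower.

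Ccne2 passed the filter almost only through its basal arrays, so its calls are left out of the counts by role. Without it 3 of 9 genes were called at day 1 and 4 of 9 at day 5 against basal culture, and the count between day 1 and day 5 was still 5. Of the other 4 cyclins, 2 fell and 1 rose at day 1, and 3 fell at day 5. Their median change was -1.27 and -1.62, beside a median of 0.03 and 0.01 over all tested genes. None of the 5 inhibitors was called at day 1, and 1 of them, Cdkn2c, passed at an unadjusted p under 0.05, on the lower side. At day 5 none of the inhibitors passed as higher than in basal culture by limma. Their median change was -0.36 at day 1 and 0.30 at day 5. The 3 comparisons share arrays, so their calls were not set against each other.

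**Figure D1:**
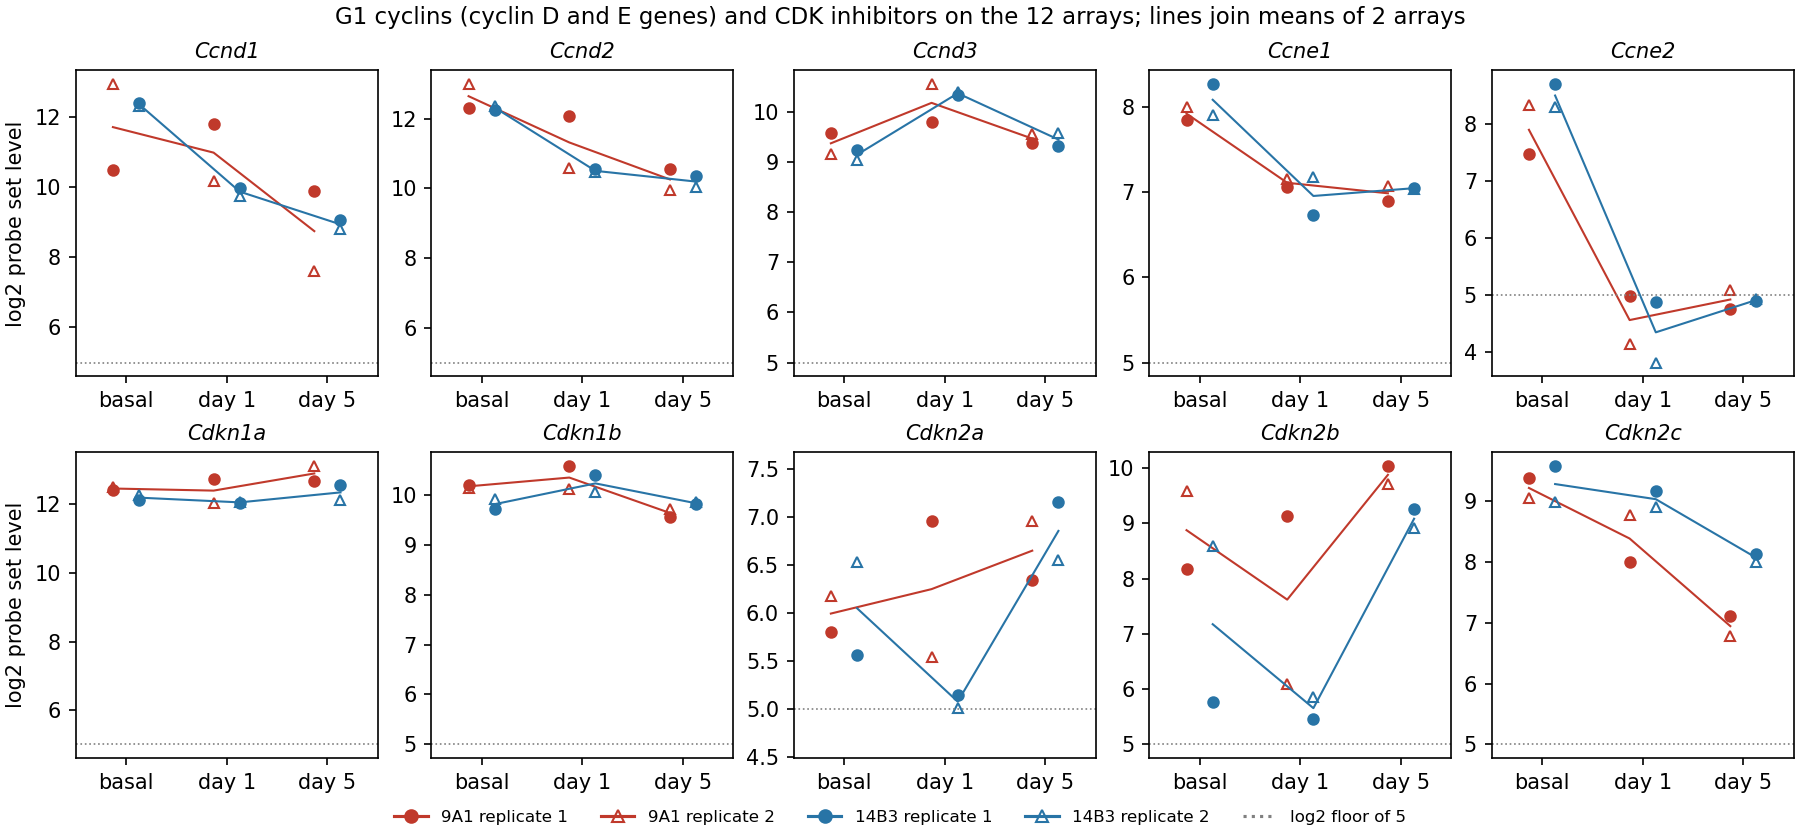
Log2 probe set level (vertical axis, scaled to each gene) of the 10 genes in basal, day 1 and day 5 culture; points are single arrays of 9A1 (red) and 14B3 (blue), lines join the means of 2 arrays, and the dotted line is the floor of 5. Ccne2 lay between 7.47 and 8.70 on the basal arrays and at or under 5.08 on all aggregate arrays, while Cdkn2b spread from 5.77 to 9.58 on the basal arrays alone.

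**Figure D2:**
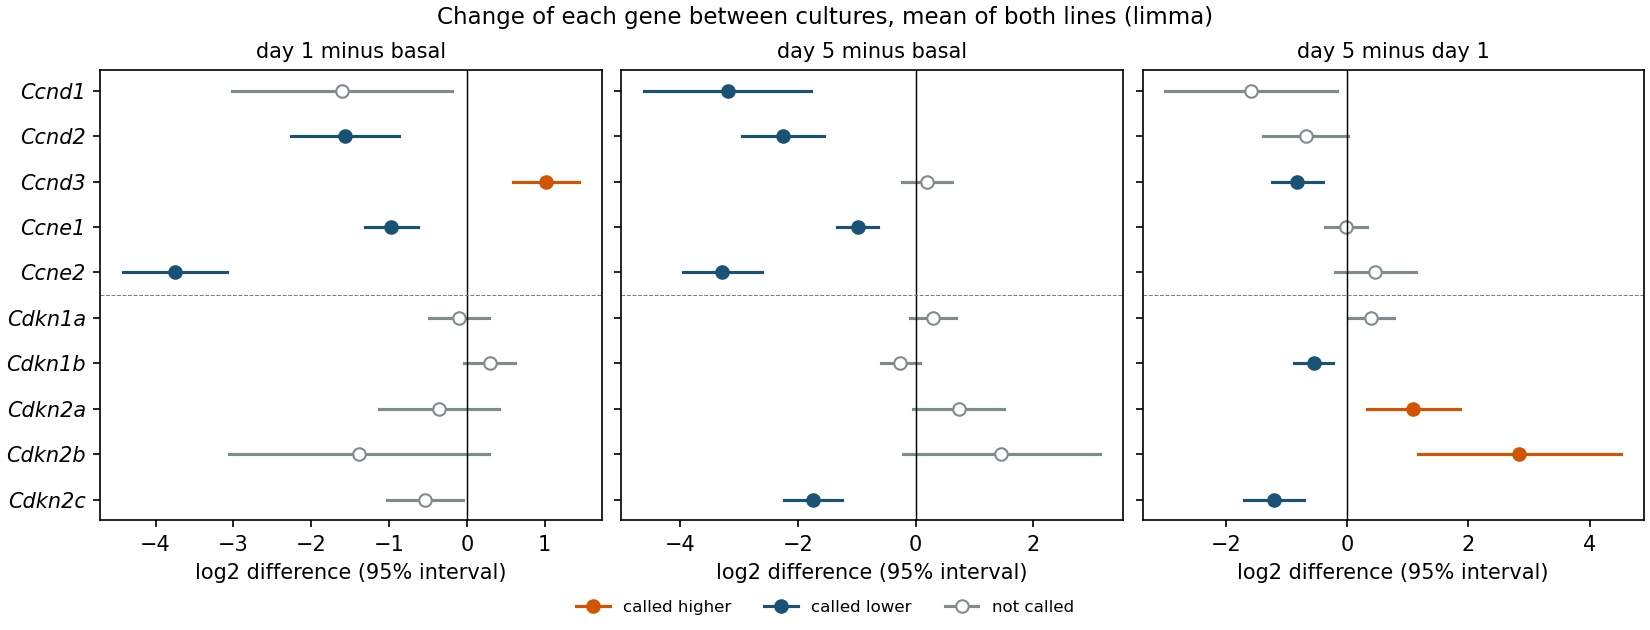
Log2 difference between cultures with its 95% interval from limma, both lines averaged, for cyclins (above the dashed line) and inhibitors (below it). Filled points passed an adjusted p of 0.05. In day 5 minus basal the called genes all lie left of 0, and Cdkn2a and Cdkn2b lie right of 0 and called only in day 5 minus day 1, at 1.09 and 2.84.

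Cyclin D1 (Ccnd1, chromosome 7, 144929931 to 144939831), the cyclin that growth factors induce most directly, had basal levels of 10.48 and 12.93 in 9A1 and 12.40 and 12.32 in 14B3. Ccnd1 levels at day 1 were 11.78 and 10.17 in 9A1 and 9.98 and 9.75 in 14B3. Ccnd1 levels at day 5 were 9.89 and 7.60 in 9A1 and 9.05 and 8.82 in 14B3. Every day 5 array lay under every basal array, but basal 9A1 replicate 1 was within the range of day 1. Ccnd1 fell by 3.19 ± 0.63 at day 5 (SE, 9.14-fold lower, adjusted p = 0.00379). Its day 1 difference was -1.61 ± 0.63 and did not pass (adjusted p = 0.132). Without basal 9A1 replicate 1, the array with hepatocyte markers at 10.7, the day 1 difference was -2.22 and passed (adjusted p = 0.0187). Without basal 9A1 replicate 2 it was -0.997, and without both basal 9A1 replicate 1 and day 1 9A1 replicate 2 it was -1.82 (adjusted p = 0.0213). The difference between day 5 and day 1 was -1.58 ± 0.63 (adjusted p = 0.110). It was -1.01 without day 5 9A1 replicate 2. It passed when any 1 of basal 9A1 replicate 1, basal 9A1 replicate 2 and day 5 9A1 replicate 1 was left out, with adjusted p between 0.0405 and 0.0417.

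Cyclin D2 (Ccnd2, chromosome 6, 127125162 to 127152188), a D cyclin also driven by Myc, had basal levels of 12.30 and 12.995 in 9A1 and 12.26 and 12.38 in 14B3. Ccnd2 levels at day 1 were 12.07 and 10.57 in 9A1 and 10.55 and 10.46 in 14B3. Ccnd2 levels at day 5 were 10.56 and 9.96 in 9A1 and 10.35 and 10.04 in 14B3. No aggregate array reached the basal range, and day 1 9A1 replicate 1 stayed just under it. Ccnd2 fell by 1.57 ± 0.31 at day 1 (2.97-fold lower, adjusted p = 0.0108) and by 2.26 ± 0.31 at day 5 (4.78-fold lower, adjusted p = 0.000637). The day 1 call was lost without day 1 14B3 replicate 2 (-1.55, adjusted p = 0.0532). Between day 5 and day 1 the difference was -0.69 ± 0.31 (adjusted p = 0.157), and it was -0.31 without day 1 9A1 replicate 1 (adjusted p = 0.289) and -1.06 and called without day 1 9A1 replicate 2 (adjusted p = 0.00944). All 7 probe sets of Ccnd2 and all 3 of Ccnd1 were lower at day 5 when each was tested alone, between -2.43 and -2.18 for Ccnd2 and between -3.63 and -3.19 for Ccnd1.

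Cyclin D3 (Ccnd3, chromosome 17, 47505051 to 47599689), the D cyclin that many differentiating tissues keep, went the other way. Basal levels were 9.59 and 9.16 in 9A1 and 9.25 and 9.05 in 14B3. Ccnd3 levels at day 1 were 9.81 and 10.56 in 9A1 and 10.34 and 10.41 in 14B3. Ccnd3 levels at day 5 were 9.38 and 9.57 in 9A1 and 9.32 and 9.59 in 14B3. All 4 day 1 arrays lay above all basal and all day 5 arrays, and the ranges of day 5 and basal culture overlapped. Ccnd3 rose by 1.02 ± 0.19 at day 1 (2.02-fold, adjusted p = 0.00818). It was lower at day 5 than at day 1 by 0.82 on the log2 scale (difference -0.82 ± 0.19, adjusted p = 0.0141), and its day 5 difference from basal culture was 0.20 (95% interval -0.22 to 0.62, adjusted p = 0.506). The day 5 against day 1 call was lost without either day 1 14B3 array or day 5 14B3 replicate 1, with adjusted p between 0.0502 and 0.0648. The rise at day 1 rested on 1 probe set, since the other 2 gave 0.09 (adjusted p = 0.835) and 0.27 (adjusted p = 0.560), the second of them at or below 5.68 on every array.

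Cyclin E1 (Ccne1, chromosome 7, 38097984 to 38107490), a partner of Cdk2, had basal levels of 7.85 and 7.997 in 9A1 and 8.27 and 7.90 in 14B3. Ccne1 levels at day 1 were 7.06 and 7.16 in 9A1 and 6.73 and 7.18 in 14B3. Ccne1 levels at day 5 were 6.90 and 7.08 in 9A1 and 7.05 and 7.04 in 14B3. The basal arrays lay above every aggregate array, and the arrays of day 1 and day 5 overlapped. Ccne1 fell by 0.97 ± 0.15 at day 1 (1.96-fold lower, adjusted p = 0.00397) and by 0.99 ± 0.15 at day 5 (1.98-fold lower, adjusted p = 0.00113). The probe set used is of a design that may cross-hybridise. The second probe set of Ccne1 fell by 1.38 and 1.41 (adjusted p = 0.000849 and 0.000195).

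Cyclin E2 (Ccne2, chromosome 4, 11190433 to 11204779), the other partner of Cdk2 and an E2F target, had basal levels of 7.47 and 8.33 in 9A1 and 8.70 and 8.30 in 14B3. Ccne2 levels at day 1 were 4.99 and 4.13 in 9A1 and 4.88 and 3.81 in 14B3. Ccne2 levels at day 5 were 4.76 and 5.08 in 9A1 and 4.89 and 4.94 in 14B3. All but 1 of the aggregate arrays lay under the floor of 5, so the size of the fall is limited by background, and the day 1 and day 5 values have no firm order. The fitted differences were -3.75 ± 0.30 at day 1 (adjusted p = 0.000361) and -3.28 ± 0.30 at day 5 (adjusted p = 9.57e-05). Ccne2 entered the test mainly through its basal arrays and so had to be higher there, and its fall is given as a description.

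p21 (Cdkn1a, chromosome 17, 29090979 to 29100722), the CIP/KIP inhibitor known to rise after DNA damage and in differentiating cells, lay between 12.05 and 13.12 throughout. Basal levels were 12.43 and 12.50 in 9A1 and 12.12 and 12.27 in 14B3. Cdkn1a levels at day 1 were 12.75 and 12.05 in 9A1 and 12.05 and 12.07 in 14B3. Cdkn1a levels at day 5 were 12.68 and 13.12 in 9A1 and 12.56 and 12.14 in 14B3. The 3 cultures overlapped, although 3 of the 4 day 5 arrays lay above all basal arrays. The day 5 difference from basal culture was 0.30 (95% interval -0.09 to 0.68, adjusted p = 0.232) and the day 1 difference was -0.10 (interval -0.48 to 0.28, adjusted p = 0.781). Whether the array compresses differences at such levels was not tested, and a rise larger than 0.68 on this scale lies outside the interval. Between day 5 and day 1 the difference was 0.40 ± 0.17 (adjusted p = 0.140), and it was 0.57 and called without day 1 9A1 replicate 1 (adjusted p = 0.0202) and 0.22 without day 1 9A1 replicate 2 (adjusted p = 0.288). The second probe set of Cdkn1a gave 0.26 at day 5 (adjusted p = 0.477).

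p27 (Cdkn1b, chromosome 6, 134920401 to 134925525), the CIP/KIP inhibitor of resting cells, which is known to be set largely by protein turnover, had basal levels of 10.20 and 10.14 in 9A1 and 9.71 and 9.92 in 14B3. Cdkn1b levels at day 1 were 10.58 and 10.11 in 9A1 and 10.40 and 10.05 in 14B3. Cdkn1b levels at day 5 were 9.56 and 9.71 in 9A1 and 9.81 and 9.85 in 14B3. The day 5 arrays lay under all day 1 arrays, and basal culture overlapped both. Cdkn1b was lower at day 5 than at day 1 (-0.55 ± 0.14, 1.47-fold lower, adjusted p = 0.0248). Its differences from basal culture were 0.30 at day 1 (interval -0.03 to 0.62, adjusted p = 0.238) and -0.26 at day 5 (interval -0.59 to 0.07, adjusted p = 0.221). The day 5 against day 1 call was lost without day 1 14B3 replicate 1 and without any of the 4 day 5 arrays, at adjusted p between 0.0621 and 0.106. The second probe set, between 5.02 and 6.05, gave -0.05 (adjusted p = 0.874). Quantile normalisation raised the day 1 difference to 0.42 and it then passed (adjusted p = 0.0262).

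The INK4 locus on chromosome 4 holds Cdkn2a (89274473 to 89294619) and Cdkn2b (89306289 to 89311032), 11.7 kb apart. Cdkn2a encodes p16 and, from the upstream start, p19Arf, a tumour suppressor that is no CDK inhibitor, and its 1 probe set cannot be assigned to either transcript here. Basal Cdkn2a levels were 5.81 and 6.18 in 9A1 and 5.56 and 6.54 in 14B3. Cdkn2a levels at day 1 were 6.96 and 5.54 in 9A1 and 5.14 and 5.00 in 14B3. Cdkn2a levels at day 5 were 6.34 and 6.96 in 9A1 and 7.16 and 6.56 in 14B3. Day 1 9A1 replicate 1 lay within the day 5 range, and the other 3 day 1 arrays lay under every basal array. All Cdkn2a levels, 5.00 to 7.16, lay near the array medians of 6.09 to 6.24. The blood, endothelial and stellate marker lists had means of 4.90 to 6.09. How much of the Cdkn2a range is background was not tested. Cdkn2a was higher at day 5 than at day 1 (1.09 ± 0.34, 2.13-fold, adjusted p = 0.0491). The call was close to the threshold: it held in 9 of 26 alternatives, with adjusted p between 0.00976 and 0.169. With 1 array left out it held without either basal 9A1 array or day 1 9A1 replicate 1 (1.45) and was lost without any other array, down to 0.74 without day 1 9A1 replicate 2 (adjusted p = 0.0958). Against basal culture the day 5 difference was 0.73 (interval -0.04 to 1.50, adjusted p = 0.136).

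p15 (Cdkn2b), the INK4 inhibitor that TGF-beta is known to induce, had basal levels of 8.17 and 9.58 in 9A1 and 5.77 and 8.58 in 14B3. Cdkn2b levels at day 1 were 9.14 and 6.10 in 9A1 and 5.46 and 5.85 in 14B3. Cdkn2b levels at day 5 were 10.04 and 9.72 in 9A1 and 9.25 and 8.91 in 14B3. The day 5 arrays were uniformly high, while the replicates of basal 14B3 and of day 1 9A1 were more than 2 log2 units apart. Cdkn2b was higher at day 5 than at day 1 by 2.84 ± 0.74 (7.17-fold, adjusted p = 0.0244). Against basal culture the day 5 difference was 1.45 ± 0.74 and did not pass (2.74-fold, interval -0.22 to 3.13, adjusted p = 0.174). Leaving out basal 14B3 replicate 2 made it 2.16 and called (adjusted p = 0.0479), and leaving out basal 14B3 replicate 1 made it 0.75 (adjusted p = 0.530). The day 1 difference from basal culture was -1.39 ± 0.74 (adjusted p = 0.284), and it was -2.15 and called without day 1 9A1 replicate 1 (adjusted p = 0.0440) and -0.63 without day 1 9A1 replicate 2 (adjusted p = 0.604). The day 5 against day 1 call was lost without either day 1 14B3 array or any day 5 array, at differences of 2.74 to 2.94 and adjusted p between 0.0673 and 0.0842.

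p18 (Cdkn2c, chromosome 4, 109660876 to 109666756, 20.4 Mb from Cdkn2a), an INK4 inhibitor of Cdk4 and Cdk6, had basal levels of 9.39 and 9.05 in 9A1 and 9.58 and 8.99 in 14B3. Cdkn2c levels at day 1 were 7.998 and 8.78 in 9A1 and 9.16 and 8.91 in 14B3. Cdkn2c levels at day 5 were 7.11 and 6.78 in 9A1 and 8.13 and 8.005 in 14B3. Every day 5 array lay under every basal array, with 9A1 lower than 14B3, and the day 5 and day 1 arrays overlapped. Cdkn2c fell by 1.74 ± 0.22 at day 5 (3.35-fold lower, adjusted p = 0.000409), and it was lower at day 5 than at day 1 (-1.20 ± 0.22, adjusted p = 0.00490). Its day 1 difference was -0.54 ± 0.22 (adjusted p = 0.142), and it was -0.74 and called without day 1 9A1 replicate 2 (adjusted p = 0.0354) and -0.35 without day 1 9A1 replicate 1 (adjusted p = 0.199).

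By arrays alone, with no model, 5 of the 10 genes had no overlap between the 4 day 5 and the 4 basal arrays, and each was lower. This compares with 38.8% of all tested genes without overlap, 20.3% lower and 18.5% higher. At day 1 against basal culture 4 of 10 did not overlap, where the share of all tested genes was 14.3%, with 5.37% higher and 8.90% lower. At day 5 against day 1 it was 2 of 10, Ccnd3 and Cdkn1b, both lower, where the share was 27.1%, with 15.1% higher and 12.1% lower. Cdkn1a, Cdkn2a and Cdkn2b overlapped in all 3 comparisons. Both counts against basal culture include Ccne2, which entered the test mainly through its basal arrays, so its part in them is a description. The other genes without overlap against basal culture were Ccnd1, Ccnd2, Ccne1 and Cdkn2c at day 5. At day 1 they were Ccnd2 and Ccne1, both lower, and Ccnd3, higher.

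**Figure D3:**
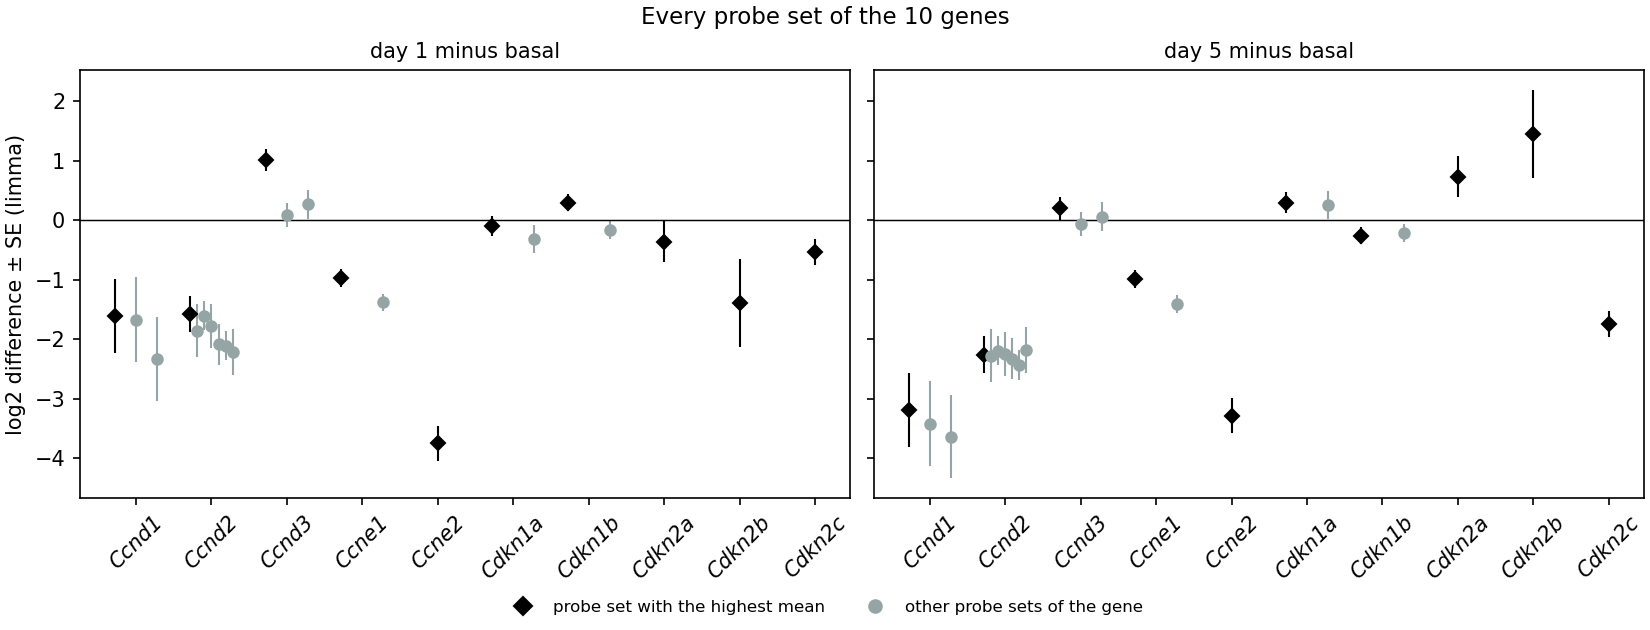
Log2 difference ± SE (limma, vertical axis) of every probe set of the 10 genes at day 1 and day 5 against basal culture; black diamonds are the probe set with the highest mean, grey points the others. The 3 Ccnd1 and 7 Ccnd2 probe sets lie together well below 0 at day 5, while at day 1 a single Ccnd3 probe set lies at 1.02 and the other 2 at 0.09 and 0.27.

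Within each line, fewer arrays stood behind each value, 2 against 2. At day 1 against basal culture, the 1 call in 9A1, where 1.88% of tested genes were called, was Ccne2 at -3.34, whose day 1 values of 4.99 and 4.13 lie under the floor, and array weights lost it (adjusted p = 0.500). None of the other 9 was called in 9A1, and at an unadjusted p under 0.05 there were 1 higher and 3 lower. In 14B3, 4 were called against a share of 8.57%, with 3.40% higher and 5.17% lower, namely Ccnd2 (-1.82), Ccnd3 (1.23), Ccne1 (-1.13) and Ccne2 (-4.16). Without Ccne2, 1 of 9 was higher and 2 were lower in 14B3. At day 5, 4 of 10 were called in 9A1, against 15.2% of tested genes (6.66% higher and 8.54% lower), and 5 in 14B3, against 26.7%. Ccnd2, Ccne1, Ccne2 and Cdkn2c fell in both lines. Leaving Ccne2 out of the day 5 counts, 3 of 9 were called in 9A1 and 4 of 9 in 14B3, all lower. Ccnd1 fell in 14B3 (-3.42, adjusted p = 0.0204), and its difference in 9A1, -2.96, missed the threshold (adjusted p = 0.0538). Cdkn2b differed by 1.00 in 9A1 and by 1.91 in 14B3, and neither passed (adjusted p = 0.633 and 0.237). With array weights, which let arrays count unequally, the rise in 14B3 passed for Cdkn2b (adjusted p = 0.0223) and for Cdkn2a (0.81, adjusted p = 0.0369, against 0.282 with equal weights). Between day 5 and day 1, Cdkn2c fell in 9A1 (-1.44, adjusted p = 0.0214, and 0.199 with array weights), where 9.89% of tested genes were called, 6.13% higher and 3.76% lower. In 14B3 none of the 10 was called by limma, against 6.91% of tested genes (3.77% higher and 3.14% lower), and at an unadjusted p under 0.05 there were 2 higher and 2 lower. The differences of Cdkn2a and Cdkn2b between these days were 0.40 and 2.26 in 9A1 and 1.78 and 3.43 in 14B3, none past the threshold within a line with equal weights. With array weights 5 of the 10 passed in 14B3, Cdkn2a (adjusted p = 0.00434) and Cdkn2b (0.00710) higher and Ccnd3 (0.00143), Cdkn1b (0.0368) and Cdkn2c (0.00560) lower. The share of all tested genes called in 14B3 with array weights was not worked out. Calls under these weights therefore cannot be read as particular to these genes.

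Whether the lines differed was tested directly. For none of the 10 genes did the change in 9A1 minus the change in 14B3 pass by limma. The shares of all tested genes that passed were 0% at day 1 and 0.0380% at day 5 and between the aggregate days. At an unadjusted p under 0.05 there was 1 such gene, Cdkn2c at day 5, with changes of -2.27 in 9A1 and -1.21 in 14B3 (difference -1.06, interval -2.04 to -0.08, adjusted p = 1.00). Levels of the lines within a culture did not pass for any of the 10 either. Cdkn2c at day 5 came closest, at 6.95 in 9A1 and 8.07 in 14B3 (difference -1.12, adjusted p = 0.400). The replicate spread was unequal, with a standard deviation of the pair difference over genes of 0.896, 0.779 and 0.405 in 9A1 and 0.253, 0.300 and 0.196 in 14B3 for basal, day 1 and day 5.

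The kinases that these cyclins and inhibitors bind were read from a list of 7 genes with Cdc25a and the CDK-activating kinase, of which 0 rose and 2 fell at day 1, and 0 rose and 3 fell at day 5. Of all tested genes 5.25% were higher and 8.80% lower at day 1, and 16.9% higher and 18.5% lower at day 5. The median change of the list was -0.43 and -0.77. Cdk4, the target of INK4 inhibitors, was -0.16 ± 0.22 at day 1 (adjusted p = 0.729) and fell by 1.91 ± 0.22 at day 5 (3.75-fold lower, adjusted p = 0.000291). Cdk6, its close relative, was 0.24 at day 1 and -0.77 ± 0.39 at day 5 (adjusted p = 0.177). Cdk2, the partner of the E cyclins, fell by 1.02 ± 0.21 at day 1 (adjusted p = 0.0132) and by 1.64 ± 0.21 at day 5 (adjusted p = 0.00046). Cdc25a, the phosphatase that activates Cdk2, fell by 1.17 ± 0.16 at day 1 and was back at 0.00 ± 0.16 from its basal level at day 5.

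Of 3 further CDK inhibitors, none was higher than in basal culture at either time by limma. The shares of all tested genes that were higher were 5.25% and 16.9%. Cdkn1c, which encodes p57, differed by -0.18 at day 1 and 0.04 at day 5 (adjusted p = 0.665 and 0.935). Cdkn2d, which encodes the INK4 inhibitor p19, fell by 0.53 at day 1 (adjusted p = 0.0457) and was at -0.32 at day 5 (adjusted p = 0.141). Cdkn3, a phosphatase that acts on Cdk2 and is high in dividing cells, fell by 2.49 ± 0.21 at day 5 (adjusted p = 7.8e-05).

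Among 13 pocket proteins and E2F factors, 0 rose and 6 fell at day 1, and 2 rose and 7 fell at day 5. Over all tested genes 5.25% were higher and 8.80% lower at day 1, and 16.9% higher and 18.5% lower at day 5. Rises in the list at day 5 were thus near the share over all genes. The 2 that rose were Rb1, which encodes RB, and Rbl2, which encodes p130, the pocket protein of resting cells. Rb1 fell by 0.88 ± 0.22 at day 1 (adjusted p = 0.0284) and rose by 0.97 ± 0.22 at day 5 (1.97-fold, adjusted p = 0.00731), both against basal culture. Rbl2 was 0.42 ± 0.28 at day 1 (adjusted p = 0.403) and rose by 1.08 ± 0.28 at day 5 (2.12-fold, adjusted p = 0.0133). Rbl1, which encodes p107 and is known as an E2F target, fell by 2.49 ± 0.23 at day 1 and by 1.00 ± 0.23 at day 5. E2f1 was -0.19 at day 1 and fell by 0.72 ± 0.21 at day 5 (adjusted p = 0.0238), and the repressor E2f7 fell by 3.25 ± 0.30 at day 1 and fell by 3.53 ± 0.30 at day 5. Tfdp1, the DNA-binding partner of E2F, fell by 1.45 ± 0.17 at day 5 (adjusted p = 0.000347).

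Targets of E2F were lower in both aggregate cultures. Of 19 tested genes of S phase entry, 0 rose and 18 fell at day 1, and 0 rose and 17 fell at day 5, with medians of -2.15 and -2.72. Among all tested genes 8.80% fell at day 1 and 18.5% at day 5. Pola1, the DNA polymerase that starts each strand, fell by 2.98 at day 1 and fell by 3.30 at day 5. Rrm2, a subunit of ribonucleotide reductase, fell by 2.52 at day 1 and fell by 4.73 at day 5. The day 5 change was -3.94 for the origin licensing gene Cdc6 and -4.54 for cyclin A2 (Ccna2), the next cyclin to bind Cdk2. Of 14 mitotic genes 13 fell at day 1 and 14 at day 5, with medians of -2.15 and -3.93. Among them the mitotic kinase gene Aurkb, the checkpoint gene Bub1 and the ubiquitin enzyme gene Ube2c were at -3.85, -4.85 and -4.67 at day 5. Their mean level lay between 8.13 and 8.75 on the day 1 arrays and between 6.03 and 7.44 on the day 5 arrays, against 9.64 to 10.9 on the basal arrays. In these bulk samples, fewer dividing cells and less RNA per cell cannot be told apart. The hepatocyte markers given above moved with the same cultures, and their part in the cyclin and inhibitor values was not tested.

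**Figure D4:**
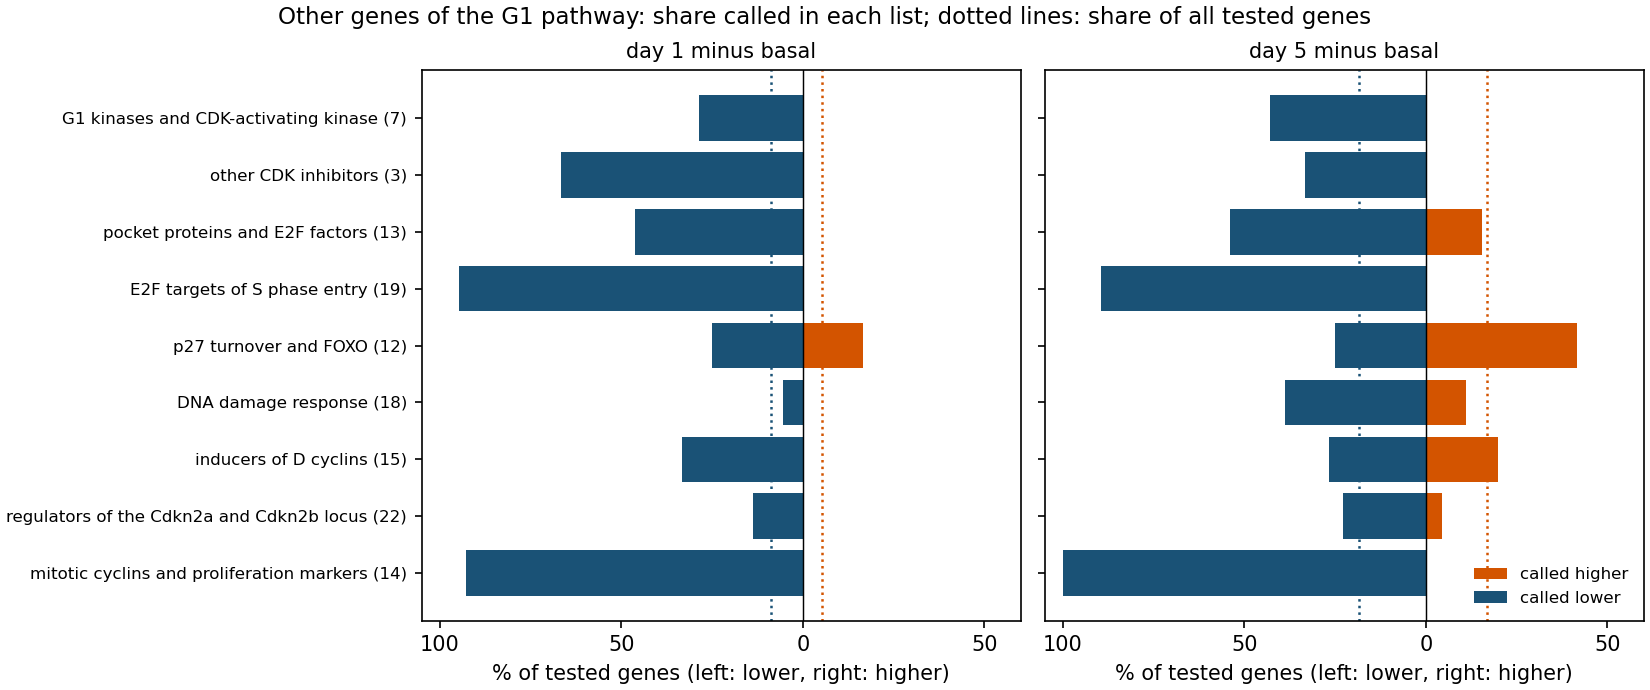
Share of the tested genes in each list called lower (left, blue) or higher (right, orange) at day 1 and day 5 against basal culture; numbers in brackets are genes tested and dotted lines give the share over all tested genes. The S phase and mitotic lists reach 18 of 19 and 13 of 14 genes lower at day 1, and of the p27 turnover and FOXO list 5 of 12 lie on the higher side at day 5.

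p27 turnover and the FOXO factors, which are known to raise Cdkn1b transcription, were read from 12 genes, of which 2 rose and 3 fell at day 1, and 5 rose and 3 fell at day 5. The shares over all tested genes were 5.25% higher and 8.80% lower at day 1, and 16.9% and 18.5% at day 5. Skp2, the ubiquitin ligase subunit that marks p27 for destruction, fell by 2.17 ± 0.38 at day 1 (adjusted p = 0.00661) and by 2.86 ± 0.38 at day 5 (7.25-fold lower, adjusted p = 0.000567). Its cofactor Cks1b fell by 0.69 ± 0.17 and by 2.13 ± 0.17. Kpnb1, an importin, fell by 1.17 at day 5, and Uhmk1, a kinase that moves p27 out of the nucleus, rose by 0.70 ± 0.13. Foxo3 and Foxo4 rose at both times, by 0.62 and 0.47 for Foxo3 and by 0.52 and 0.69 for Foxo4. Foxo1 was 0.38 at day 1 (adjusted p = 0.180) and rose by 0.87 ± 0.17 at day 5 (adjusted p = 0.00344). The Cdkn1b transcript itself was at -0.26 at day 5, as given above, and protein was not measured.

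DNA damage response genes, which are known to be induced along with Cdkn1a, were read from 18 tested genes, with 0 higher and 1 lower at day 1, and 2 higher and 7 lower at day 5. The 2 higher genes were Sesn1 and Fas. Sesn1, a stress-responsive inhibitor of mTORC1, rose by 2.21 ± 0.34 (4.64-fold, adjusted p = 0.00111), and the death receptor gene Fas rose by 1.67 ± 0.22. Mdm2, a ubiquitin ligase gene of this list, was -0.78 at day 1 (adjusted p = 0.111) and fell by 1.18 ± 0.29 at day 5 (adjusted p = 0.0110). Plk2, a stress-induced kinase gene, fell by 2.04 at day 5, and Phlda3, an inhibitor of AKT, fell by 1.78. The 1 gene lower at day 1 was the junction gene Perp, at -0.54 (adjusted p = 0.0319). The median of the list was -0.37 at day 5. Its counts stand beside shares over all tested genes of 5.25% higher and 8.80% lower at day 1. At day 5 these shares were 16.9% and 18.5%.

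Signals that induce D cyclins were read from 15 genes, of which 0 rose and 5 fell at day 1, and 3 rose and 4 fell at day 5. All tested genes gave 5.25% higher and 8.80% lower at day 1, and 16.9% and 18.5% at day 5. Rises in the list at day 5 were near that share. Myc, which drives growth and Ccnd2, fell by 2.63 ± 0.27 at day 1 (adjusted p = 0.000584), and it fell by 2.24 ± 0.27 at day 5 (adjusted p = 0.000343). The AP-1 gene Fosl1 fell by 1.46 at day 1 and fell by 2.50 at day 5, and the ERK-responsive factor Etv5 by 1.69 and 1.51. Fos was -1.21 ± 0.44 at day 1 (adjusted p = 0.105) and rose by 1.53 ± 0.44 at day 5 (adjusted p = 0.0224), and the ERK inhibitor gene Spry4 rose by 1.09 ± 0.31.

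Known regulators of the INK4 locus, among them Polycomb genes and TGF-beta genes, numbered 22 tested. At day 1, 0 rose and 3 fell, and at day 5, 1 rose and 5 fell, with medians of -0.24 and -0.32. Shares over all tested genes were 5.25% higher and 8.80% lower at day 1, and 16.9% and 18.5% at day 5. Falls in the list at day 5 lay near that share. Hmga2, a chromatin protein of fetal cells known to hold the locus down, was -0.85 ± 0.49 at day 1 (adjusted p = 0.324) and fell by 4.31 ± 0.49 at day 5 (19.8-fold lower, adjusted p = 0.000266). Suz12, a Polycomb repressor subunit, fell by 0.66 ± 0.14 and 0.59 ± 0.14. Ets1, known to activate the p16 promoter, fell by 2.69 ± 0.39 at day 5. Klf10, induced early by TGF-beta, fell by 1.07 ± 0.26 at day 1 and rose by 1.57 ± 0.26 between day 1 and day 5. Its day 5 difference from basal culture was 0.50 ± 0.26 (adjusted p = 0.179). The other TGF-beta genes of the list are given beside it, and their part in the Cdkn2a and Cdkn2b levels was not tested. Tgfb1 fell by 1.41 at day 5 (adjusted p = 0.0148), and Tgfbr1 and Smad3 each fell by 0.82 between day 1 and day 5. Tgfb2, Tgfbr2 and Smad4 were not called in any comparison. The Polycomb gene Cbx8 rose by 0.47 ± 0.13 at day 5. Ezh2, also a Polycomb gene, fell by 1.32 ± 0.24 at day 5 (adjusted p = 0.00237). Between day 1 and day 5 Ezh2 fell by 0.91 (adjusted p = 0.0236) and the Polycomb gene Cbx2 rose by 0.81 (adjusted p = 0.0298).

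For each gene the 3 tested genes with the most similar pattern were named by Pearson correlation over the 12 arrays. The arrays fall into 3 cultures, so a high value mostly says that 2 genes share the order of the cultures, and it carries no test. Ccne1 was closest to Mcm10, Haspin and Chtf18 (0.971, 0.968 and 0.966) and Ccne2 to Rad18, Rpa2 and Zfp131 (0.982, 0.981 and 0.981). Mcm10 and Rpa2 are DNA replication proteins. Ccnd1 was closest to Golm2, Sh3bgrl2 and Tubgcp2 (0.985, 0.977 and 0.970), Ccnd2 to Dctd, Tssc4 and Tiam1 (0.978, 0.977 and 0.977), and Ccnd3 to Slc35b2, Mtch1 and Bri3 (0.955, 0.949 and 0.948). Among the inhibitors, the gene most like Cdkn2a was its neighbour Cdkn2b (0.864), followed by Slx1b and Arpin (0.858 and 0.847). Cdkn2b itself was closer to Dcaf12l1, Bet1l and Fam53b (0.968, 0.935 and 0.924). Cdkn2c was closest to Hspe1, Fam83d and Mtap (0.957, 0.944 and 0.940), Cdkn1a to Bmyc, Fam53b and Pdk3 (0.930, 0.889 and 0.880), and Cdkn1b to Cst9, Tor3a and Rnf146 (0.942, 0.931 and 0.899). Mtap, an enzyme gene of methionine salvage, lies 93.4 kb from Cdkn2a but was not among the 3 genes nearest Cdkn2a in pattern. Cdkn2c, which Mtap resembled, correlated with Cdkn2a at -0.656.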

How the data were processed

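Total RNA of 12 BMEL cultures was hybridised to Affymetrix mouse arrays. The authors deposited log2 levels per probe set. Per the submitters' processing notes, these came from RMA (R 2.3.1), which removes background and brings arrays towards 1 distribution. A change in total RNA is thus not seen, and values near the floor or the top may be compressed. The deposited arrays did not share 1 distribution exactly, with medians of 6.09 to 6.24 and SDs of 2.13 to 2.33. No detection calls were used. Of 45101 probe sets, 34945 had 1 gene in the platform annotation and were kept, and 0 columns of values were left unmapped. The brightest probe set on average stood for each gene.

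The packages limma 3.58.1 and statmod 1.5.0 (R 4.3.3) fitted 1 mean per group to 12 arrays, with a variance trend. P-values were adjusted by Benjamini-Hochberg over the 15781 tested genes, with a threshold of 0.05. The fit was tested on simulated data with 200 changed genes, and in day 5 minus basal it recovered 59% of 2-fold and 94% of 4-fold changes. In day 1 minus basal it recovered 54% and 94%. The simulation gave all 12 arrays 1 spread per gene, unlike the unequal spread of the 2 lines. Recovery in the real data may therefore differ. The number of arrays limits the precision, and p-values measure the spread between replicates, which the labels call biological. The genes and the lists were chosen with earlier results of these data known. The text names all 10 genes and a set of kinases, pocket proteins and other partners. It also names the 2 largest called rises and falls of each list and the 3 genes nearest each pattern. Further TGF-beta and Polycomb genes of the INK4 locus list are named beyond this rule. The labels do not say that equal replicate numbers share a day or passage, so numbers were not used as pairs. Deviations of same-numbered replicates correlated between -0.30 and 0.38, highest between day 1 and day 5 in 9A1. Alternatives tried were other filters, probe set rules, normalisations, weights, moderation, models and thresholds, a replicate block, and leaving out arrays.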

Additional observations from a re-analysis of the deposited data

How the results depend on the processing

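The 5 falls at day 5 against basal culture were 5 in all alternatives but the 2-fold minimum, which left 4 (Ccne1 out). Ccne2, whose fall is given as a description, is 1 of these 5. With single arrays left out, genes called higher numbered 1 to 1 at day 1, 0 to 1 at day 5 and 0 to 3 between day 1 and day 5, and genes called lower 2 to 4, 5 to 5 and 1 to 4. Between day 1 and day 5, genes called higher were 1 (Cdkn2b) with no filter, the mean of probe sets, no variance trend, the additive model and without both basal 9A1 replicate 1 and day 1 9A1 replicate 2, and 0 with array weights or adjusted p under 0.01. Genes called lower there were 1 with adjusted p under 0.01 or a 2-fold minimum and 5 without both arrays. At day 1, quantile normalisation gave 2 higher genes, and leaving out both arrays gave 2 higher and 5 lower. At day 5, leaving out both gave 1 higher, Ccnd3. The labels do not say what equal replicate numbers share. The replicate block gave 1 higher gene, Cdkn2b, between day 1 and day 5, and lost Cdkn2a and Cdkn1b. Within lines it lost Ccne1 at day 5 in 9A1 and Ccnd2 and Ccnd3 at day 1 in 14B3. No other call on the 10 genes was lost under it. Array weights lost Ccne2 at day 1, Ccne1 at day 5 and Cdkn2c between day 1 and day 5 within 9A1, and within 14B3 gained Ccnd1 and Cdkn1b at day 1, Cdkn2a and Cdkn2b at day 5, and 5 genes between day 1 and day 5. The share of all tested genes called within a line under these weights was not worked out.

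Signs turned only in differences that were not called. The Ccne1 difference between day 5 and day 1 was 0.0082 with median centring and 0.0073 without both arrays, and lay between -0.13 and 0.10 with single arrays left out. Cdkn1a at day 1 was 0.0594 without both arrays and between -0.28 and 0.0767 with single arrays left out. Another probe set gave 0.0315 for Ccnd2 between day 5 and day 1, -0.0628 for Ccnd3 at day 5 and -0.17 for Cdkn1b at day 1. The cause was not tested. Over all genes, calls ranged between 255 and 2815 higher and 593 and 2819 lower at day 1, 1292 and 3884 higher and 1494 and 4228 lower at day 5, and 920 and 2839 higher and 587 and 3852 lower between them.

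Levels under 5 are set by background, which limits Ccne2 in aggregates. Cdkn2a levels, at 5.00 to 7.16, were also low, and their share of background was not tested. Replicate pairs of 9A1 differed more than those of 14B3, and limma shares 1 spread over both.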
